A study of Mus musculus with 8 samples.

Results

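Red pulp macrophages of the spleen take up aged red cells, break down their haem and hand the iron back to the blood. Their identity depends on the transcription factor Spi-C, haem oxygenase-1 opens the haem ring, ferroportin exports the iron, and the adhesion molecule VCAM1, the receptors MERTK and AXL and complement C1q serve cell contact and the uptake of dying cells. The 10 genes described here are Spic, Vcam1, Hmox1, Slc40a1, Adgre1, Mrc1, Mertk, Axl, C1qa and C1qb, out of 52459 genes in the deposited tables. They were taken by symbol from both tables, and all 10 were found in each. They were chosen from the measured values of these libraries, when Vcam1, Mertk and Mrc1 were already known to be low in treated mice. Their differences from the PBS knockdown mice are therefore given as a description, and no test of them is taken as support.

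Gene expression was measured by poly(A)-enriched RNA-seq of AE9a+ leukaemia cells from the spleens of 8 moribund mice, 1 library per mouse. AE9a is a truncated RUNX1-RUNX1T1 fusion protein that drives acute myeloid leukaemia in mice. In all groups cKit+ marrow cells of C57BL/6J origin carried a retrovirus with AE9a and a hairpin against Tet2 that doxycycline (DOX) switches on, a genotype labelled RTA shTet2. The study asked how withdrawal of DOX, or ascorbate under continued DOX, changes the leukaemia cells relative to PBS under continued DOX.

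The mice labelled Tet2-restored (mice 21 and 23) were secondary recipients off DOX that were given PBS. The ascorbate mice (28 and 30) were secondary recipients on DOX that were given ascorbate (ASC), and the PBS knockdown mice (16, 17 and 19) were secondary recipients on DOX that were given PBS. The primary knockdown mouse (12) was a C57BL/6J primary recipient on a DOX diet, irradiated and transplanted at 6 to 8 weeks of age. The age and strain of the secondary recipients, the doses and the way AE9a+ cells were separated are not given in the sources used here. Absence of DOX and the restored label coincide, so their effects cannot be told apart. Every recipient received 500000 support marrow cells beside 50000 AE9a+ cells, the support being wild type in the primary transplant, so macrophages of the host or of the support marrow may be among the collected cells. Fewer macrophages among those cells and less RNA of these genes per cell cannot be told apart in bulk RNA.

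Libraries held 18.1 to 34.2 M counts, and levels are given as CPM, counts as a share of a library total scaled by the trimmed mean of M-values (TMM) and expressed per 1 M counts. A count of 0 allows up to 3 counts, which is 0.0852 to 0.183 CPM depending on the library. Mitochondrial genes took 9.49% and 14.5% of counts in the mice labelled Tet2-restored, 17.1% and 9.73% in the ascorbate mice, 9.09% to 11.4% under PBS knockdown and 5.16% in the primary mouse. Levels also followed transcript length to a different degree in each library: the rank correlation with length, of each library against the PBS knockdown mice (mice 16, 17 and 19 each against the other members of that group), ran from −0.46 in mouse 21 to 0.39 in mouse 16 over 11505 genes. The hairpin's target Tet2 was measured at 14.1 CPM for mouse 21, with a 95% Poisson interval of 12.6 to 15.7, and at 23.1 CPM for mouse 23 (21.1 to 25.3), against 12.6, 12.8 and 13.4 CPM in the PBS knockdown mice, whose intervals reached 14.9 CPM. Mouse 21 therefore overlapped the knockdown mice in Tet2, and its group is named below by its label only. In the ascorbate mice Tet2 had 13.7 and 11.7 CPM. The AE9a+ label was checked by Runx1t1, whose sequence the fusion carries. It had 155 and 304 CPM in the mice labelled Tet2-restored and 134 and 129 CPM in the ascorbate mice. PBS knockdown mice had 101 to 108 CPM and the primary mouse 184 CPM. The progenitor receptor Kit was at 54.4 CPM or more in every library. Cd34 and Ptprc, listed with them, were less abundant. Cd34 averaged 0.227 CPM in the mice labelled Tet2-restored, 0.736 CPM under ascorbate and 1.80 CPM under PBS knockdown, against 19.8 CPM in the primary mouse. Ptprc averaged 3.81, 4.12 and 7.08 CPM in these groups, against 3.12 CPM in the primary mouse. The label check thus rests on Runx1t1 and Kit.

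The genes lie on several chromosomes (GRCm38, GENCODE vM21), and all 10 are annotated as protein coding. Spic is at chromosome 10, 88674772 to 88685015, Vcam1 at chromosome 3, 116109949 to 116129688, Hmox1 at chromosome 8, 75093621 to 75100589, and Slc40a1 at chromosome 1, 45908068 to 45926523. Adgre1 is at chromosome 17, 57358691 to 57483527, while Mertk (128698956 to 128802894) and Mrc1 (14229392 to 14332057) are both on chromosome 2 and Axl is at chromosome 7, 25757273 to 25788705. C1qa (136895917 to 136898803) and C1qb (136880129 to 136886187) are neighbours on chromosome 4. Vcam1 shares exonic bases with Gm43109 on the opposite strand, and since no strand setting is given, reads of that pair cannot be told apart. The other 9 share no exonic base with another gene.

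Promoter sequences were matched by symbol in a RefSeq table (GRCm38.p6) for 5 of the 10 genes, Mrc1, Mertk, C1qb, Axl and Spic. The 250 bases before each start were searched on both strands for GAGGAA, a core bound by the macrophage factors PU.1 and Spi-C, for TGACNNNGC, an antioxidant response or Maf element core, and for TGCTGA, a Maf half-site. GAGGAA was found in 3 of the 5 (Mrc1, C1qb and Axl), against 23.3% of 32851 mouse promoters, TGACNNNGC in C1qb only, against 10.2%, and TGCTGA in C1qb and Spic, against 16.1%. The sequences of Mrc1 and Mertk are shown beside that of C1qb. Mrc1 and Mertk were lower in every treated mouse than in every PBS knockdown mouse, and C1qb was not. Spic and Axl are not shown. Spic was also lower in every treated mouse and held no GAGGAA, whereas Axl, which overlapped for the restored label, held it. A relation of motifs to levels was not tested. Capitals mark every match to one of these motifs, TTCCTC being GAGGAA and GCGTCGTCA being TGACNNNGC read on the other strand. The Mrc1 line (chr2:14229164-14229391, plus strand) is 228 bases long, since the 22 bases nearest the start are exonic in GENCODE. Mertk is chr2:128698665-128698914 on the plus strand and C1qb is chr4:136886201-136886450 on the minus strand.
Mrc1: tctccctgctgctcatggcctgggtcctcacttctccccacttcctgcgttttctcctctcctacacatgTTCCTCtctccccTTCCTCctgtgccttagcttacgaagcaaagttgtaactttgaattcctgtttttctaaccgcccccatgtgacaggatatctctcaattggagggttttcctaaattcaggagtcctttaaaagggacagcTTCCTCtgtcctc
Mertk: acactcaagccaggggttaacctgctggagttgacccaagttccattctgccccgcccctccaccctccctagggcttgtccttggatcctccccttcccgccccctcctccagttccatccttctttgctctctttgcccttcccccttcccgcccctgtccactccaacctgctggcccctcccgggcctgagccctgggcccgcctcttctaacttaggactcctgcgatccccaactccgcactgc
C1qb: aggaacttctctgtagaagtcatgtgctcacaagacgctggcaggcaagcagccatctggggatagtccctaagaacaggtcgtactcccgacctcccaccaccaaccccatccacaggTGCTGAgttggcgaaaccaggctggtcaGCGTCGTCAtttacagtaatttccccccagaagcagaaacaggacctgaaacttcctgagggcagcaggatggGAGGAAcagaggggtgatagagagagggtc

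Mrc1 held 3 matches to GAGGAA, beginning 180, 167 and 35 bases before its start. C1qb held 1 match to each motif, at 131 bases before its start for TGCTGA, 103 for TGACNNNGC and 30 for GAGGAA, and none of these overlapped another. Mertk held none. A match is a run of letters and not a measured binding site, and no match says only that these letters are not in this window.

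Per length of transcript the genes were expressed at low to middling levels. In FPKM, the authors' unit of fragments scaled by transcript length and library size, C1qb led the PBS knockdown mice at 9.35 ± 3.69 (SD, n = 3), followed by Slc40a1 at 6.63 ± 2.96, C1qa at 6.15 ± 1.97 and Hmox1 at 3.95 ± 0.708. Vcam1 (1.49 ± 0.288), Axl (1.31 ± 0.429) and Adgre1 (1.16 ± 0.628) came next, and Mrc1 (0.493 ± 0.0603), Spic (0.380 ± 0.110) and Mertk (0.277 ± 0.0252) were lowest. These FPKM levels ranked between 5022 and 11490 among all genes. Of the 9 pairs of neighbours in that order, the ranges over the 3 mice were separate only between Hmox1 and Vcam1 and between Adgre1 and Mrc1, and C1qa lay above Hmox1, Vcam1 above Axl, Mrc1 above Spic and Spic above Mertk in each of the 3 mice even so. In the remaining pairs the order was not the same in every mouse and the mean difference was smaller than its SD: C1qb against Slc40a1, Slc40a1 against C1qa, and Axl against Adgre1.

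**Figure D1:**
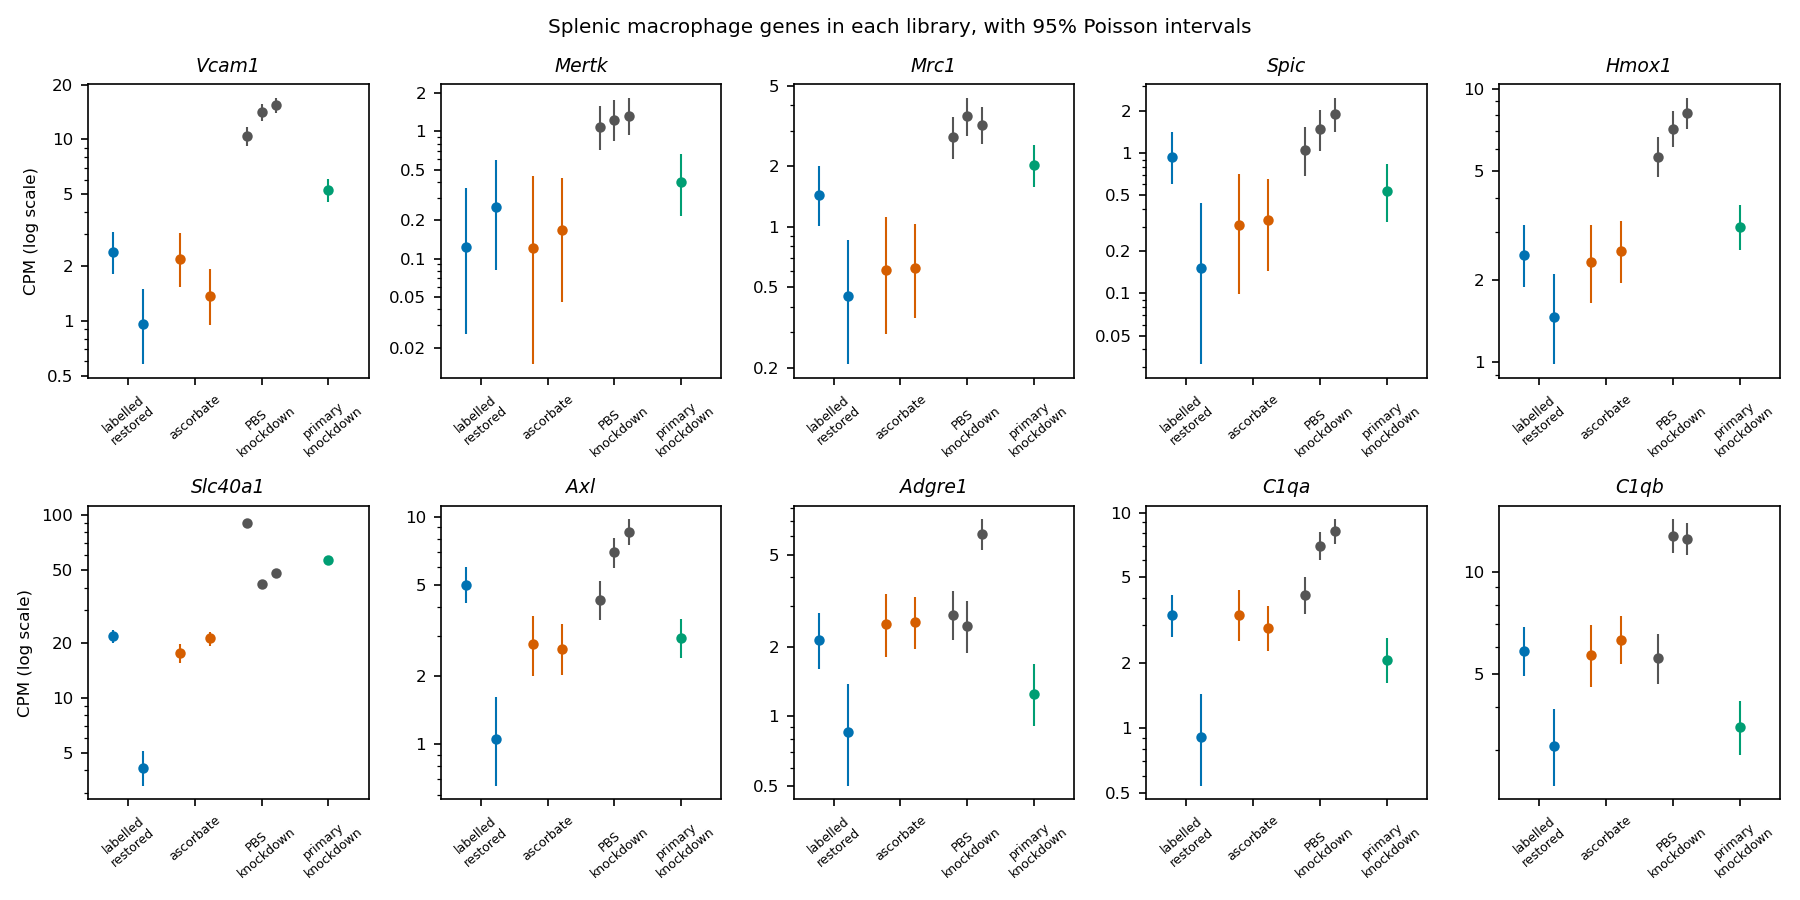
Level of each gene (CPM, log scale) in each of the 8 libraries, as points with 95% Poisson intervals, in the groups labelled Tet2-restored (2 mice), ascorbate (2), PBS knockdown (3) and primary knockdown (1). Vcam1 and Mertk sit well below the PBS knockdown mice in all 4 treated mice, whereas for C1qb mouse 16 of the PBS knockdown group lies among the treated mice.

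Spic encodes the transcription factor that red pulp macrophages require. It had 0.948 and 0.151 CPM in the mice labelled Tet2-restored and 0.305 and 0.334 CPM in the ascorbate mice, against 1.05, 1.48 and 1.90 CPM in the PBS knockdown mice. All 4 treated mice were below all 3 PBS knockdown mice, but mouse 21 came within 0.948 against 1.05 CPM, and the 95% Poisson interval of mouse 21 (0.601 to 1.42) overlapped that of mouse 16 (0.685 to 1.54). Behind these levels are 23 and 3 counts in the mice labelled Tet2-restored and 5 and 8 in the ascorbate mice, against 26, 36 and 53 in the PBS knockdown mice. The fitted log2 fold change was −1.39 (SE 0.66) for the restored label and −2.19 (SE 0.72) for ascorbate, both against PBS knockdown.

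Vcam1 encodes the adhesion molecule that binds integrin alpha4 on blood cells. Its levels were 2.39 and 0.959 CPM in the mice labelled Tet2-restored and 2.20 and 1.38 CPM in the ascorbate mice, against 10.4, 14.1 and 15.4 CPM in the PBS knockdown mice. The highest treated mouse was thus under the lowest PBS knockdown mouse. The log2 fold change was −2.97 (SE 0.43) for the restored label and −2.92 (SE 0.43) for ascorbate, that is, 7.86-fold lower for the restored label and 7.55-fold lower for ascorbate.

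Hmox1, haem oxygenase-1, is induced by haem and by oxidative stress. It stood at 2.47 and 1.46 CPM in the mice labelled Tet2-restored and at 2.32 and 2.55 CPM in the ascorbate mice, against 5.65, 7.14 and 8.14 CPM in the PBS knockdown mice. No treated mouse reached any PBS knockdown mouse. Its log2 fold change was −1.82 (SE 0.35) for the restored label and −1.52 (SE 0.35) for ascorbate.

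Slc40a1 encodes ferroportin, the iron exporter, which erythroid precursors also make. It had 21.6 and 4.14 CPM in the mice labelled Tet2-restored and 17.5 and 21.1 CPM in the ascorbate mice, against 90.6, 41.6 and 48.1 CPM in the PBS knockdown mice. The groups did not overlap, and mouse 16 held about as much as the other PBS knockdown mice together while mouse 23 was far under every other library. Fitted log2 fold changes were −2.22 (SE 0.68) for the restored label and −1.65 (SE 0.66) for ascorbate. Slc4a1, the anion exchanger of red cells and a member of the erythroid list, was likewise highest in mouse 16. It had 18.4 and 3.08 CPM in the mice labelled Tet2-restored and 21.1 and 21.6 CPM in the ascorbate mice, against 125, 35.6 and 10.7 CPM in the PBS knockdown mice. The part of erythroid cells in the Slc40a1 values was not tested.

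Adgre1 encodes F4/80, the surface marker of mouse macrophages. Its levels were 2.14 and 0.858 CPM in the mice labelled Tet2-restored and 2.50 and 2.55 CPM in the ascorbate mice, against 2.74, 2.46 and 6.13 CPM in the PBS knockdown mice. The ascorbate mice lay among the PBS knockdown mice, of which only mouse 19 stood clearly above them. Log2 fold changes were −1.32 (SE 0.53) for the restored label and −0.59 (SE 0.51) for ascorbate. Mrc1, the mannose receptor CD206, had 1.44 and 0.454 CPM in the mice labelled Tet2-restored and 0.611 and 0.627 CPM in the ascorbate mice, against 2.78, 3.53 and 3.19 CPM in the PBS knockdown mice. Unlike Adgre1, Mrc1 did not overlap between treated and PBS knockdown mice, and its log2 fold change was −1.72 (SE 0.50) for the restored label and −2.35 (SE 0.53) for ascorbate.

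Mertk and Axl encode sister receptor kinases that recognise dying cells through bridging proteins, Gas6 for both and protein S for MERTK. Mertk had 0.124 and 0.252 CPM in the mice labelled Tet2-restored and 0.122 and 0.167 CPM in the ascorbate mice, against 1.09, 1.23 and 1.33 CPM in the PBS knockdown mice. Behind the Mertk levels are 3 and 5 counts in the mice labelled Tet2-restored and 2 and 4 in the ascorbate mice, against 27, 30 and 37 in the PBS knockdown mice. The log2 fold change of Mertk was −2.69 (SE 0.57) for the restored label and −3.01 (SE 0.59) for ascorbate. Axl had 5.03 and 1.06 CPM in the mice labelled Tet2-restored and 2.75 and 2.63 CPM in the ascorbate mice, against 4.31, 6.98 and 8.60 CPM in the PBS knockdown mice. Mouse 21 was above mouse 16 in Axl, so the restored label overlapped PBS knockdown, whereas the ascorbate mice did not. Its log2 fold change was −1.11 (SE 0.56) for the restored label and −1.31 (SE 0.57) for ascorbate. Of the bridging proteins, Gas6 had at most 3 counts in any library. Pros1, the gene of protein S, passed in neither comparison, with a log2 fold change of −1.08 (SE 0.55, adjusted p 0.222) for the restored label and −0.84 (SE 0.55, adjusted p 0.373) for ascorbate.

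C1qa and C1qb encode chains of C1q, which opens the classical complement pathway and is made largely by macrophages. C1qa had 3.34 and 0.909 CPM in the mice labelled Tet2-restored and 3.36 and 2.93 CPM in the ascorbate mice, against 4.15, 7.02 and 8.17 CPM in the PBS knockdown mice. C1qb had 5.85 and 3.08 CPM in the mice labelled Tet2-restored and 5.68 and 6.31 CPM in the ascorbate mice, against 5.56, 12.7 and 12.5 CPM in the PBS knockdown mice. Mouse 16 was the lowest of its group for both chains, and for C1qb it lay below 3 of the 4 treated mice. For the restored label the log2 fold change was −1.59 (SE 0.52) for C1qa and −1.19 (SE 0.41) for C1qb. For ascorbate it was −1.05 (SE 0.51) for C1qa and −0.78 (SE 0.41) for C1qb.

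All 10 genes passed the filter on low counts, but not evenly: 8 exceeded its cutoff of 0.416 CPM in each of the 7 secondary libraries, Mertk did so in 0 of 4 treated and 3 of 3 PBS knockdown libraries, and Spic in 1 of 4 and 3 of 3. For the restored label, 10 of 10 fitted changes were below 0 with a median of −1.65, against −0.002 over all 12137 genes tested. Groups did not overlap for 8 of 10 genes (Axl and C1qb being the exceptions), where 24.5% of all genes tested lay wholly below the PBS knockdown mice. Neither the count nor the median is support for a difference, since the genes were chosen on this contrast, and no test is reported for them here. Over all genes, edgeR's quasi-likelihood test with Benjamini-Hochberg adjustment called 0%, while 29.2% had an unadjusted p under 0.05. Without mouse 21 the median of the 10 genes became −2.71, and without mouse 23 it became −1.05.

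For ascorbate, 10 of 10 fitted changes were below 0 with a median of −1.59, against −0.01 over all genes tested. Groups did not overlap for 8 of 10 genes, Adgre1 and C1qb being the exceptions, where 23.5% of all genes lay wholly below the PBS knockdown mice. The same limit holds, as the genes were chosen on this contrast too. Over all genes, edgeR called 1.77% lower and 1.09% higher, and 23.6% had an unadjusted p under 0.05. Both sets of changes are measured against the same PBS knockdown mice.

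**Figure D2:**
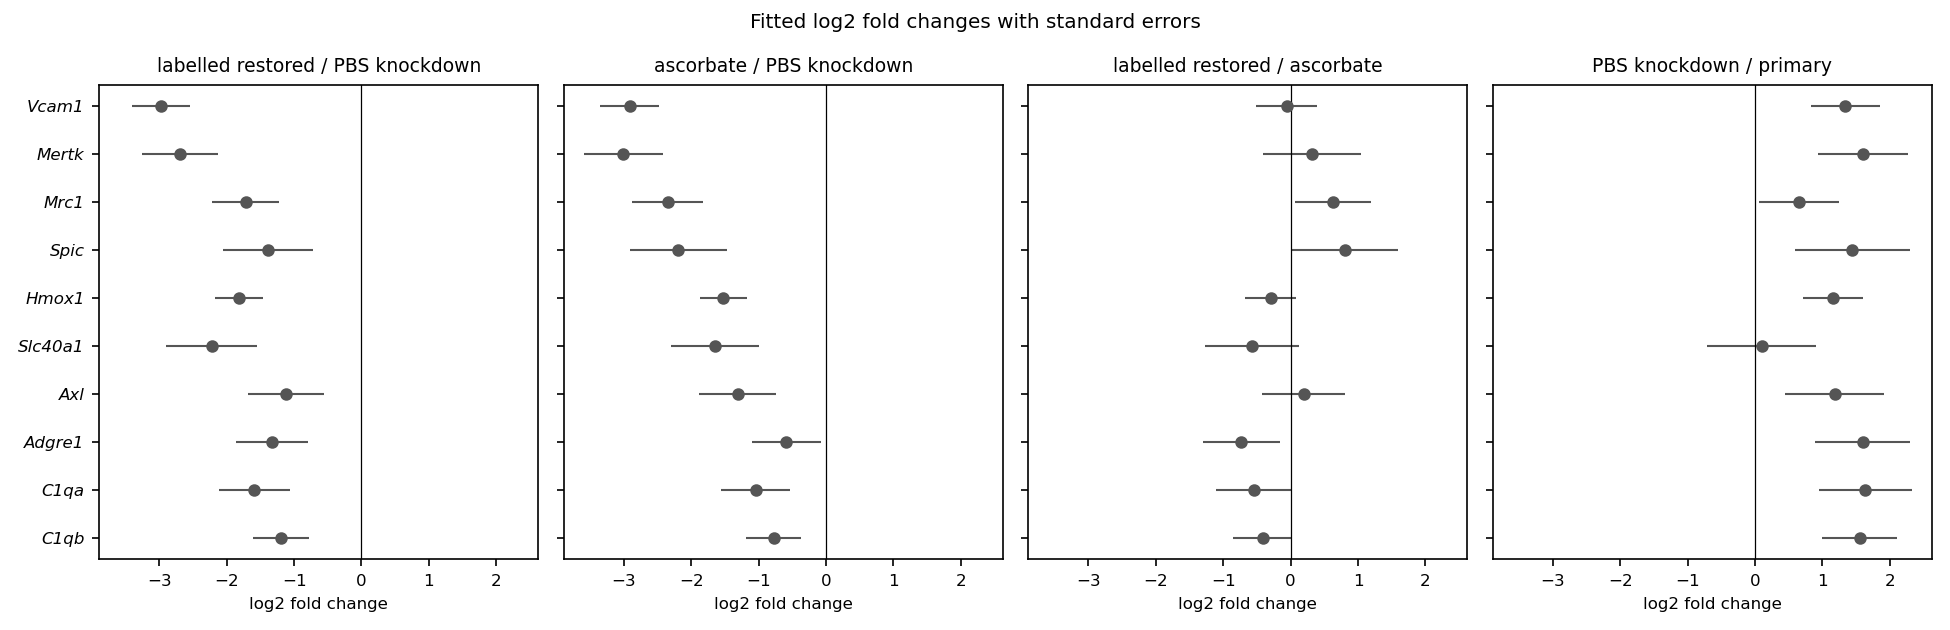
Fitted log2 fold change (points) and standard error (bars) of each gene in 4 comparisons. Both treated groups sit left of 0 against PBS knockdown for all 10 genes, which were chosen on those contrasts, the values between the treated groups lie on both sides of 0, and in PBS knockdown against the primary mouse 9 of 10 genes lie at 0.65 or higher with Slc40a1 at 0.09.

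The libraries differed in how far the genes were lowered together. The median deviation of the 10 genes from the PBS knockdown mean (log2 CPM) came to −1.0 for mouse 21 and −2.65 for mouse 23, both labelled Tet2-restored, and to −1.63 and −1.43 in the ascorbate mice 28 and 30. Within the PBS knockdown group it was −0.33, 0.08 and 0.31 in mice 16, 17 and 19. The mice labelled Tet2-restored thus differed from each other by more than the ascorbate mice did. Summed over the 10 genes, the level was 45.3 and 13.3 CPM in the mice labelled Tet2-restored and 37.4 and 40.5 CPM in the ascorbate mice, against 128, 98.3 and 113 CPM in the PBS knockdown mice.

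The mice labelled Tet2-restored were set against the ascorbate mice directly, to ask whether the treated groups differ in these genes. None of the 10 was called by edgeR (0.00824% of all genes were, which is 1 gene), and none had an unadjusted p under 0.05. DESeq2's Wald test called none of the 10 either. On log2 FPKM, limma left out Spic, Mertk, Mrc1 and Adgre1 for low values and called none of the others. The genes were chosen as low in treated mice against the same PBS knockdown mice, which favours similar values in the treated groups. The absence of calls is therefore no independent support for likeness. Mrc1 had a log2 fold change of 0.63 (SE 0.57, adjusted p 0.620), Spic of 0.80 (SE 0.79, adjusted p 0.655) and Vcam1 of −0.06 (SE 0.46, adjusted p 0.966). The median was −0.18, with 4 genes above 0 and 6 below. Adgre1 alone did not overlap between these groups, at 2.14 and 0.858 CPM in the mice labelled Tet2-restored and 2.50 and 2.55 CPM in the ascorbate mice (log2 fold change −0.73, SE 0.57, adjusted p 0.562), where 22.1% of all genes lay wholly below the ascorbate mice. With SEs of 0.38 to 0.79 over the 10 genes, differences of that size and well above it could go undetected. Leaving out mouse 21 or mouse 23 of the restored label moved the median to −1.0 or 0.13.

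The PBS knockdown mice were set against the primary mouse, whose leukaemia stands 1 transplant earlier, in a fit of all 8 libraries that assumes the lone library to vary like the other groups. Vcam1 averaged 13.3 ± 2.60 CPM under PBS knockdown (SD, n = 3), against 5.25 CPM in the primary mouse, and C1qb averaged 10.3 ± 4.06 CPM under PBS knockdown, against 3.49 CPM in the primary mouse. Slc40a1 averaged 60.1 ± 26.6 CPM in the PBS knockdown mice, against 56.2 CPM in the primary mouse, which lay inside the PBS knockdown range. The primary mouse had 0.397 CPM of Mertk, 2.02 of Mrc1, 0.539 of Spic, 3.12 of Hmox1, 2.92 of Axl, 1.25 of Adgre1 and 2.07 of C1qa, each under the lowest PBS knockdown mouse.

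Except for Slc40a1, then, the genes stood higher in all 3 PBS knockdown mice than in the primary mouse, 9 of 10 where 29.7% of all 13024 genes tested did. The log2 fold changes had a median of 1.39 (0.01 over all genes tested) and ran from 0.09 (Slc40a1, SE 0.80, adjusted p 0.985) to 1.64 (C1qa, SE 0.69, adjusted p 0.512). By edgeR 0 of 10 passed, where 0.115% of all genes did, and 6 of 10 had an unadjusted p under 0.05, where 9.09% of all genes had, with C1qb having the smallest (log2 fold change 1.55, SE 0.56, adjusted p 0.410). DESeq2's Wald test also called none of the 10, and limma on log2 FPKM, which left out Spic, Mertk, Mrc1 and Adgre1 for low values, called none. These PBS knockdown mice are those used above as the comparator of both treated groups. The genes were chosen as high in these mice relative to treated mice, which favours a positive value here, so the counts are no independent support.

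Markers of other cells also differed between the PBS knockdown mice and the primary mouse. The dendritic cell and MHC class II list summed to 33.3 to 59.7 CPM in the PBS knockdown mice, against 22.1 CPM in the primary mouse, with 9 of 9 tested genes above 0 and a median log2 fold change of 1.28. The stroma and endothelium list summed to 78.0 to 107 CPM in the PBS knockdown mice, against 51.7 CPM in the primary mouse. Plvap and Dcn made up most of that sum. Of its 17 genes 5 were tested, all above 0 with a median of 0.98, and 8 were at 0 in all 8 libraries. The T and NK cell list had 1.98 to 4.09 CPM in the PBS knockdown mice, against 0.795 CPM in the primary mouse. In the other direction, neutrophil genes summed to 1.54 to 10.9 CPM in the PBS knockdown mice, against 51.5 CPM in the primary mouse, with 9 of 10 below 0 and a median of −3.36, and B and plasma cell genes to 37.2 to 62.8 CPM in the PBS knockdown mice, against 265 CPM in the primary mouse. No gene of these lists passed by edgeR, though 7 of the 10 neutrophil genes and 3 of the 9 B and plasma cell genes had an unadjusted p under 0.05, and DESeq2's Wald test called 2 lower in each of these lists. In the erythroid list 8 of 10 tested genes lay above 0, with a median log2 fold change of 0.54. Slc4a1 had 125, 35.6 and 10.7 CPM in the PBS knockdown mice, against 57.1 CPM in the primary mouse. The part of these cells in the values of the 10 genes was not tested.

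Counts of the other genes were also set against the summed counts of C1qa and C1qb in the same library, a ratio that does not depend on how libraries are scaled. Vcam1 had 0.260 and 0.241 counts per C1q count in the mice labelled Tet2-restored and 0.243 and 0.149 in the ascorbate mice, against 1.07, 0.715 and 0.747 under PBS knockdown and 0.944 in the primary mouse. Vcam1 was thus low relative to C1q in each treated mouse, and its primary value lay within the PBS knockdown range. Vcam1, Mertk and Mrc1 were already known to be low in treated mice when the genes were chosen. The ratios here and below are therefore a description and no independent support. Mrc1 per C1q count was 0.157 and 0.114 in the mice labelled Tet2-restored and 0.0676 and 0.0679 in the ascorbate mice, against 0.286, 0.179 and 0.155 in the PBS knockdown mice. The ascorbate mice were separate in that ratio, while mouse 21 overlapped mouse 19.

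Spic per C1q count was 0.103 and 0.0380 in the mice labelled Tet2-restored and 0.0338 and 0.0362 in the ascorbate mice, against 0.108, 0.0748 and 0.0920 in the PBS knockdown mice. Axl per C1q count was 0.547 and 0.266 in the mice labelled Tet2-restored and 0.304 and 0.285 in the ascorbate mice, against 0.444, 0.353 and 0.417 in the PBS knockdown mice. In both ratios the ascorbate mice were below every PBS knockdown mouse, while mouse 21 was not.

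Of the other ratios, those of Mertk and Hmox1 overlapped the PBS knockdown mice in 1 treated mouse, mouse 23, and those of Slc40a1 and Adgre1 in more. Mertk per C1q count was 0.0135 and 0.0633 in the mice labelled Tet2-restored and 0.0135 and 0.0181 in the ascorbate mice, against 0.112, 0.0624 and 0.0642 in the PBS knockdown mice, so mouse 23 overlapped them with its 5 counts. Hmox1 per C1q count was 0.269 and 0.367 in the mice labelled Tet2-restored and 0.257 and 0.276 in the ascorbate mice, against 0.581, 0.362 and 0.394 in the PBS knockdown mice. Adgre1 per C1q count was 0.233 and 0.215 in the mice labelled Tet2-restored and 0.277 and 0.276 in the ascorbate mice, inside the PBS knockdown range of 0.125 to 0.297. Slc40a1 per C1q count was 2.35 and 1.04 in the mice labelled Tet2-restored and 1.94 and 2.28 in the ascorbate mice, against 9.32, 2.11 and 2.33 under PBS knockdown and 10.1 in the primary mouse. Mice 16 and 12, with the high Slc40a1 ratios, are also the only libraries whose rank correlation with transcript length was above 0 (0.39 in mouse 16 and 0.31 in mouse 12), and Slc40a1 (9000 bases of exon) and Vcam1 (8870) are far longer than C1qa (1040) and C1qb (1088). With a length offset in the fit, the log2 fold changes for the restored label were −2.70 for Vcam1, −1.90 for Slc40a1, −1.92 for C1qa and −1.49 for C1qb. For ascorbate they were −2.74 for Vcam1, −1.44 for Slc40a1, −1.21 for C1qa and −0.91 for C1qb.

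**Figure D3:**
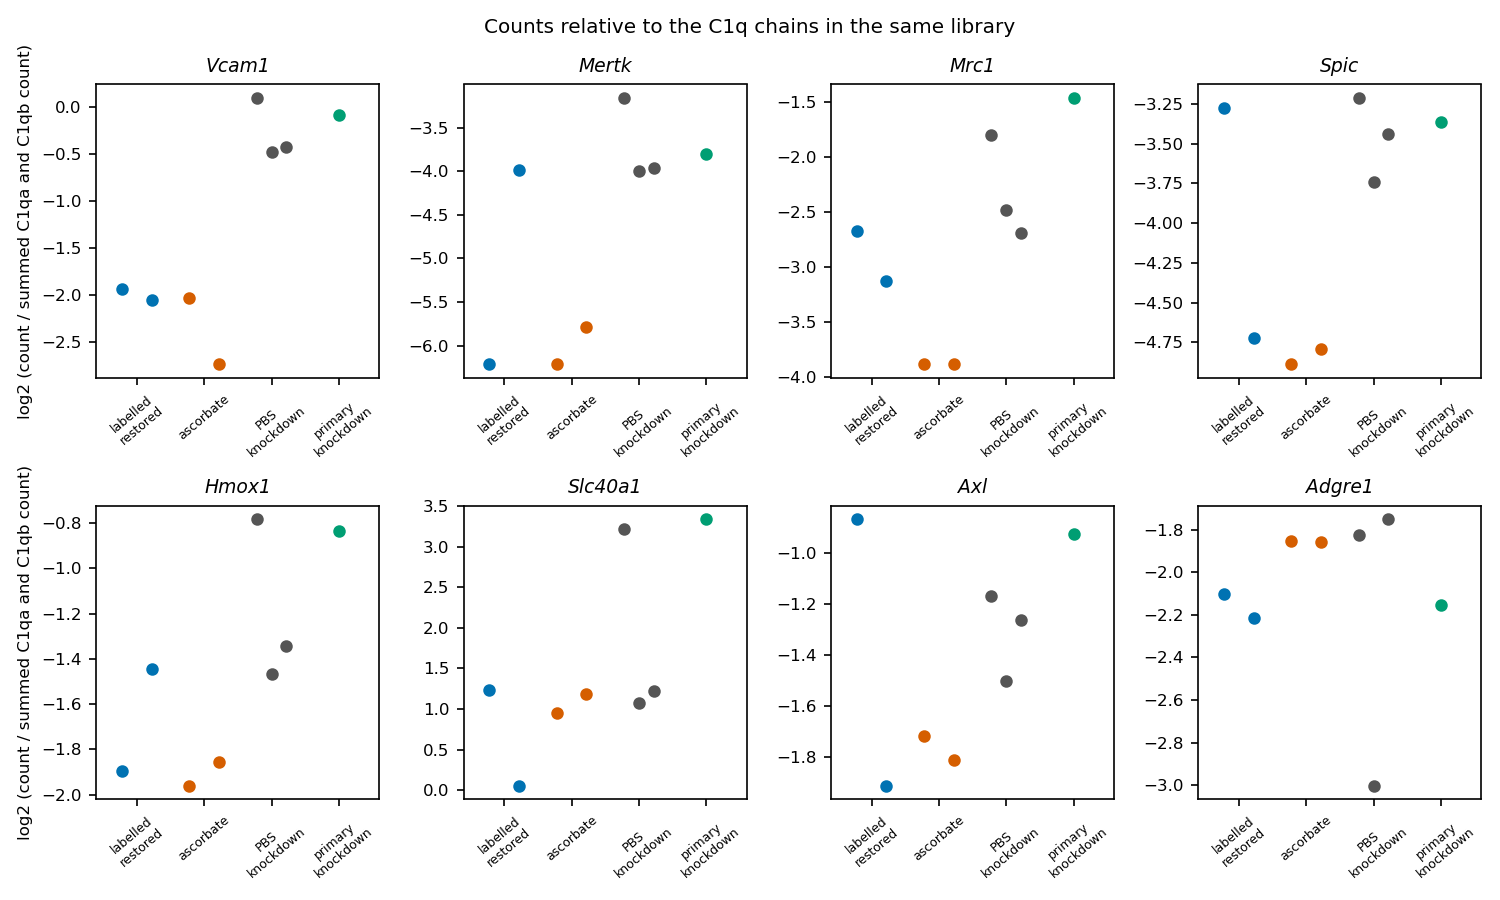
Count of each gene divided by the summed count of C1qa and C1qb in the same library (log2), 1 point per mouse, for the groups labelled Tet2-restored, ascorbate, PBS knockdown and primary knockdown. The Vcam1 ratio is at most 0.260 in the 4 treated mice and at least 0.715 in the other 4, while the Adgre1 ratio of treated mice falls within the PBS knockdown range. The genes were chosen on the contrasts of treated mice with PBS knockdown mice.

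Other genes of macrophage identity bear on the name of the group. The 10 genes were present in every library, and 21 further macrophage genes were listed, of which none was at 0 in all 8 libraries and 17 passed the filter. For the restored label 0 of the 17 were called (13 below 0, median −0.80), and for ascorbate 0 were lower and 1 was higher (13 below 0, median −0.83). Spi1 was the one that rose under ascorbate. It encodes PU.1, a master factor of macrophages that leukaemia blasts also express, and averaged 145 ± 10.5 CPM in the ascorbate mice (SD, n = 2) against 80.7 ± 14.5 CPM in the PBS knockdown mice (n = 3; log2 fold change 0.84, SE 0.19, edgeR adjusted p 0.0477). In the mice labelled Tet2-restored it averaged 158 ± 26.9 CPM (log2 fold change 0.97, SE 0.19, edgeR adjusted p 0.0502). Summed over the 21 genes, the level was 223 and 250 CPM in the mice labelled Tet2-restored and 260 and 261 CPM in the ascorbate mice. PBS knockdown mice had sums of 181 to 216 CPM, so each treated mouse was higher. Spi1, which averaged higher in both treated groups, made up a large part of that sum. The sum therefore does not describe the list, since 13 of the 17 tested genes lay below 0 in each comparison. By DESeq2's Wald test 2 of the 17 were called for the restored label and 3 for ascorbate, and 6 for the restored label and 9 for ascorbate had an unadjusted edgeR p under 0.05. Over all genes tested, the Wald test called 15.4% for the restored label and 10.5% for ascorbate, and 29.2% had an unadjusted edgeR p under 0.05 for the restored label and 23.6% for ascorbate. These shares are the background for the counts of the lists that follow.

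None of the markers more particular to resident splenic macrophages passed by edgeR. Those named here were picked by small p, and 4 of the 17 tested genes of the list lay above 0 in each comparison. Cd5l, a secreted protein of tissue macrophages, had 1.65 and 0.404 CPM in the mice labelled Tet2-restored and 0.611 and 0.543 CPM in the ascorbate mice, against 1.98, 4.15 and 6.34 CPM in the PBS knockdown mice. All treated mice were below all PBS knockdown mice, and the edgeR adjusted p was 0.0890 for the restored label and 0.0614 for ascorbate. Cd163, the haemoglobin scavenger receptor, had 0.124 and 0 CPM in the mice labelled Tet2-restored and 0.0611 and 0 CPM in the ascorbate mice, against 0.363, 1.03 and 0.430 CPM in the PBS knockdown mice, a handful of counts in any treated library. Siglec1, the sialoadhesin of metallophilic macrophages, had 0.367 and 0.251 CPM in the ascorbate mice, against 0.726, 1.27 and 2.08 CPM in the PBS knockdown mice (log2 fold change −2.16, SE 0.62, adjusted p 0.0895). Maf, a factor of mature macrophages, had 0.371 and 0.303 CPM in the mice labelled Tet2-restored, against 1.29, 0.698 and 1.58 CPM in the PBS knockdown mice (−1.80, SE 0.55, adjusted p 0.0785). In PBS knockdown against the primary mouse, 0 of 18 tested genes of the list passed, with a median of 1.05, and Cd5l (2.86, SE 0.92), Siglec1 (2.56, SE 0.83) and Fcgr1, the high-affinity Fc receptor (3.04, SE 1.0), had adjusted p of 0.348, 0.355 and 0.366.

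**Figure D4:**
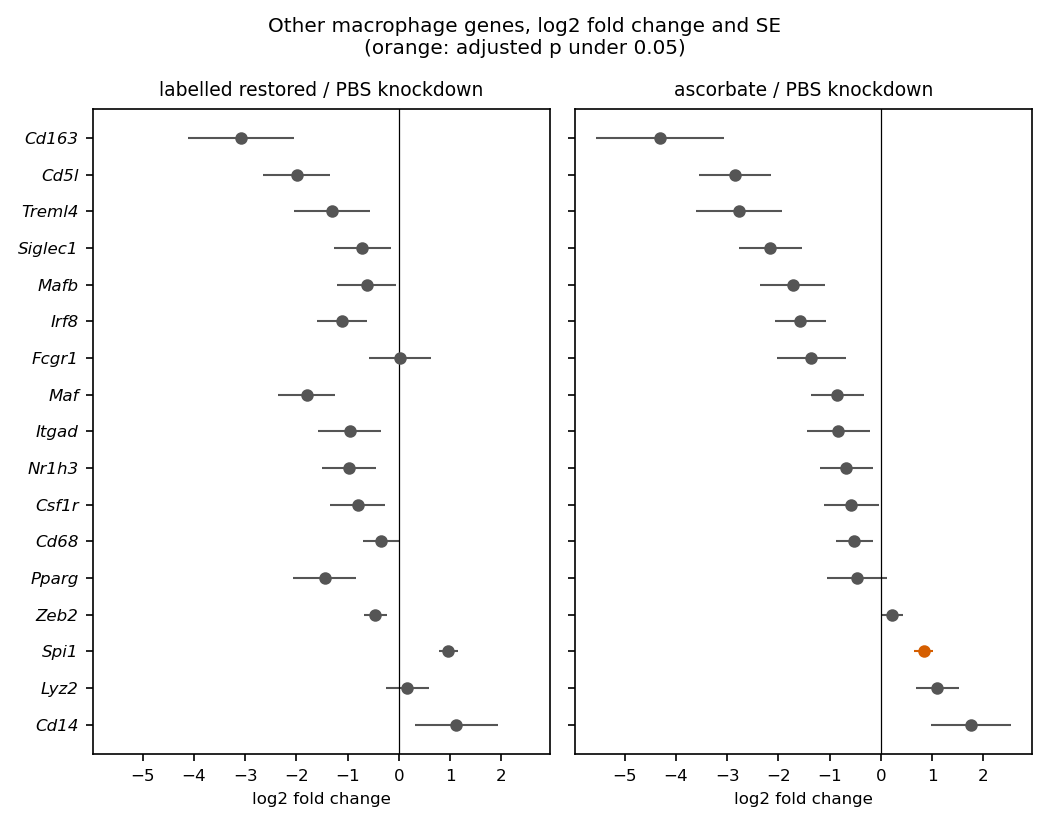
Log2 fold change (points) and standard error (bars) of the 17 further macrophage genes that were tested, for the restored label and for ascorbate against PBS knockdown, with calls in orange. Spi1, under ascorbate, is the only call, and 13 of 17 genes lie below 0 in each panel.

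Among 18 measured genes of haem and iron handling outside the 10, 16 were tested and 0 passed in either comparison, by edgeR, with medians of −0.21 for the restored label and 0.01 for ascorbate. An unadjusted p under 0.05 was found for 6 of them for the restored label and 2 for ascorbate, and DESeq2's Wald test called 3 for the restored label, all lower, and 0 for ascorbate. Tfrc, the transferrin receptor, had 209 and 91.9 CPM in the mice labelled Tet2-restored and 106 and 346 CPM in the ascorbate mice, against 795, 529 and 417 CPM in the PBS knockdown mice. It did not overlap, and the fitted change of Tfrc (log2) was −1.95 (SE 0.60, adjusted p 0.0908) for the restored label and −1.37 (SE 0.58, adjusted p 0.211) for ascorbate. Slc11a1, the phagosomal metal transporter NRAMP1, had 1.77 and 0.909 CPM in the mice labelled Tet2-restored and 1.83 and 1.80 CPM in the ascorbate mice, against 2.26, 3.20 and 4.34 CPM in the PBS knockdown mice (adjusted p 0.102 for the restored label and 0.265 for ascorbate). Slc48a1, which moves haem out of the phagolysosome, was abundant in all groups and averaged 472 ± 11.3 CPM in the mice labelled Tet2-restored and 545 ± 44.5 CPM in the ascorbate mice, against 443 ± 37.6 CPM in the PBS knockdown mice. Slc48a1 was thus not low in treated mice, unlike Hmox1 and Slc40a1.

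Partner genes of VCAM1 and of the CSF1 receptor were measured as well, 6 listed and 5 tested, and 0 passed by edgeR in either comparison. For the restored label 4 of the 5 had an unadjusted p under 0.05 and DESeq2's Wald test called 4, whereas both counts were 0 for ascorbate. Itga4, the alpha4 integrin that binds VCAM1, averaged 314 ± 13.7 CPM in the mice labelled Tet2-restored and 365 ± 12.4 CPM in the ascorbate mice, against 465 ± 108 CPM in the PBS knockdown mice (log2 fold change −0.57 for the restored label, SE 0.19, adjusted p 0.0973, and −0.36 for ascorbate, SE 0.19, adjusted p 0.287). Itgb7, of the same list, went the other way for the restored label, at 178 ± 28.5 CPM against 89.5 ± 3.40 CPM in the PBS knockdown mice (log2 fold change 0.99, SE 0.17, edgeR adjusted p 0.0502). In the ascorbate mice Itgb7 averaged 77.7 ± 16.5 CPM (−0.21, SE 0.18, edgeR adjusted p 0.484). Of the 5 tested genes, 2 lay above 0 and 3 below in each comparison. Csf1, the growth factor of macrophages, had 4.12 and 5.30 CPM in the mice labelled Tet2-restored and 0.794 and 1.34 CPM in the ascorbate mice, against 0.484, 0.862 and 0.896 CPM in the PBS knockdown mice. Csf1 did not overlap between the restored label and PBS knockdown (log2 fold change 2.64, SE 0.42, edgeR adjusted p 0.0502), and directly against the ascorbate mice its value was 2.13 (SE 0.48, adjusted p 0.144). For the receptor itself, Csf1r, 5.85 and 2.42 CPM in the mice labelled Tet2-restored and 4.46 and 5.27 CPM in the ascorbate mice overlapped 3.43, 6.12 and 12.1 CPM in the PBS knockdown mice.

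Of 14 further genes for the uptake of apoptotic cells, 8 were tested and 0 passed by edgeR in either comparison, with an unadjusted p under 0.05 for 2 for the restored label and 1 for ascorbate. DESeq2's Wald test called 0 for the restored label and 1 for ascorbate. Stab2, a clearance receptor of sinusoids, had 0.124 and 0 CPM in the mice labelled Tet2-restored and 0.183 and 0.167 CPM in the ascorbate mice, against 0.444, 0.821 and 0.358 CPM in the PBS knockdown mice. Elmo1, with the smallest p of the list for ascorbate, was higher there, at 252 ± 13.9 CPM against 175 ± 3.44 CPM in the PBS knockdown mice (log2 fold change 0.51, SE 0.13, edgeR adjusted p 0.0657). In the mice labelled Tet2-restored Elmo1 averaged 180 ± 4.25 CPM. For the restored label 3 of the 8 tested genes lay above 0 and 5 below, and for ascorbate 2 above and 6 below. Of 17 complement and Fc receptor genes, 10 were tested and 0 passed by edgeR, with an unadjusted p under 0.05 for 2 for the restored label and 0 for ascorbate. DESeq2's Wald test called 1 for the restored label and 0 for ascorbate. C1qc, the remaining chain of C1q, had 5.65 and 1.92 CPM in the mice labelled Tet2-restored and 3.97 CPM in both ascorbate mice, against 3.75, 11.3 and 8.53 CPM in the PBS knockdown mice, with mouse 16 again among the treated mice. The log2 fold change of C1qc was −1.05 (SE 0.53, adjusted p 0.215) for the restored label and −0.99 (SE 0.53, adjusted p 0.284) for ascorbate. Fcgr3, an Fc receptor, had 40.3 CPM in mouse 23 alone, against 0.795 to 3.17 CPM in the other 7 libraries.

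Markers of other cells that a spleen preparation could hold are given beside these values. The monocyte list summed to 33.7 and 36.0 CPM in the mice labelled Tet2-restored and to 21.8 to 34.3 CPM in the ascorbate mice, against 20.6 to 31.1 CPM in the PBS knockdown mice. Of its 9 tested genes 1 rose under ascorbate, the fibronectin gene Fn1, with 4.64 and 9.99 CPM in the ascorbate mice, against 1.81, 1.44 and 2.11 CPM in the PBS knockdown mice (log2 fold change 2.03, SE 0.38, edgeR adjusted p 0.0349). Dendritic cell and MHC class II genes summed to 56.4 and 13.2 CPM in the mice labelled Tet2-restored and to 54.7 and 56.1 CPM in the ascorbate mice, against 33.3 to 59.7 CPM in the PBS knockdown mice. They were as high in mouse 21 and the ascorbate mice as in the PBS knockdown mice, and low in mouse 23, where the 10 macrophage genes were lowest too; 0 of 6 tested genes passed in either comparison.

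Stroma and endothelium were represented mostly by Plvap and Dcn. Their list summed to 111 to 131 CPM in the mice labelled Tet2-restored and 126 to 157 CPM in the ascorbate mice, against 78.0 to 107 CPM in the PBS knockdown mice, with 0 of 5 tested genes passing. Col1a1, a collagen gene of fibroblasts, had 0.0412 and 0 CPM in the mice labelled Tet2-restored and 0.855 and 1.30 CPM in the ascorbate mice, against 1.77, 1.40 and 2.11 CPM in the PBS knockdown mice. The mice labelled Tet2-restored held 1 and 0 counts of it. It was lower in all 4 treated mice than in every PBS knockdown mouse, with an edgeR adjusted p of 0.0502 for the restored label and 0.395 for ascorbate. The defining genes Emcn, Cxcl12, Col3a1, Pdgfra, Pdgfrb, Madcam1, Ccl19 and Ccl21a, 8 of 17, were at 0 in all 8 libraries. Stromal and endothelial cells can also make VCAM1. B and plasma cell genes summed to 26.9 to 44.8 CPM in the mice labelled Tet2-restored and 17.1 to 31.3 CPM in the ascorbate mice, against 37.2 to 62.8 CPM in the PBS knockdown mice, with 0 of 9 passing. T and NK cell genes came to 2.98 to 6.17 CPM in treated mice, against 1.98 to 4.09 CPM in PBS knockdown mice, and neutrophil genes to 8.61 to 14.4 CPM in treated mice, against 1.54 to 10.9 CPM in PBS knockdown mice, with no call in either list. Among 4 tested genes of megakaryocytes and platelets, Gp1ba fell under ascorbate (log2 fold change −0.98, SE 0.16, edgeR adjusted p 0.0291). Erythroid genes, mostly globins, summed to 8639 to 13302 CPM in the mice labelled Tet2-restored and 7997 to 11731 CPM in the ascorbate mice. PBS knockdown mice had sums of 6801 to 15328 CPM, and 0 of 10 genes passed. Gene by gene, 8 of the 10 lay below 0 for the restored label (median −0.56) and 9 of the 10 for ascorbate (median −0.52). The part of these cell types in the values of the 10 genes was not tested.

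Likeness of pattern was measured as the root mean square difference between a gene's centred log2 CPM profile over the 8 libraries and the median profile of the 10 genes, over 10945 genes with a median of 0.921. The 10 genes were not alike among themselves: Hmox1 (0.20), Axl (0.258) and Spic (0.270) lay nearest their median profile, and Vcam1 (0.667), Mertk (0.688) and Slc40a1 (0.743) farthest. The pair closest to each other was Axl and C1qa, at 0.275, and the pair farthest apart was Slc40a1 and C1qb, at 1.15. Outside the 10, the nearest were Cd180, a Toll-like receptor relative of B cells and macrophages (0.258), Cnga1 (0.268), Parvg (0.284), Fcgrt, the neonatal Fc receptor (0.290), Ablim1 (0.292), Abcc3 (0.305), Lck, a kinase of T cells (0.314), and Cd2ap (0.317). Cd180 had 0.866 and 0.303 CPM in the mice labelled Tet2-restored and 0.672 and 0.961 CPM in the ascorbate mice, against 1.49, 1.44 and 2.72 CPM under PBS knockdown and 0.823 CPM in the primary mouse. These are distances over 8 libraries that share their depth and length trends, and most of these genes were at or below a few CPM.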

How the data were processed

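RNA-seq of 8 libraries, 1 mouse each, was used. Raw counts by gene symbol and, for the same libraries, FPKM values rounded to hundredths were deposited by the authors, per the file headers. Reads were processed with STAR, featureCounts and DESeq2 on mm10 (GRCm38), per the submitters' processing notes. Versions and strand are not given in the sources used here. Of the symbols, 91.7% were in GENCODE vM21, and 26 had become calendar dates. Counts were tested with edgeR 4.0.16 (R 4.3.3, quasi-likelihood test, TMM factors, filterByExpr with a minimum count of 10, Benjamini-Hochberg adjustment over all genes, threshold 0.05), after a test on simulated data. The secondary comparisons came from 1 fit of 7 libraries, and PBS knockdown against primary from a fit of all 8. Nothing in the labels pairs mice or names a batch, and p-values measure the spread between mice. Alternatives used DESeq2 1.42.0, limma 3.58.1 on FPKM with a pseudocount of 0.1 or 1 (genes with 1 FPKM in 2 libraries), other scalings and filters, a transcript-length offset and each library left out in turn. Poisson intervals and the 3-count limit cover counting error only. The 10 genes and the lists were chosen with earlier results of these data known. The genes named are the 10, up to 4 of each list with the smallest p in a comparison, markers at 0, and the 8 nearest in pattern. Csf1r and Gas6 were added after their values were seen.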

Additional observations from a re-analysis of the deposited data

How the results depend on the processing

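No paired analysis was possible because every mouse has its own number and the groups share none. Against PBS knockdown, all 10 genes kept a fold change below 0 for both the restored label and ascorbate under every alternative run that tested them, and calls moved. Calls among the 10 in these contrasts draw on the values that chose the genes, so they are no support for a difference. The counts below are over all genes unless the 10 are named. For the restored label (0 genes called), DESeq2's Wald test called 1873 genes (15.4% of 12137), among them 7 of the 10. With DESeq2 size factors edgeR called 367, and with no filter 2207. Leaving out each mouse gave 0 to 1692 genes, 0 to 7 of the 10 and medians of −2.71 to −1.05. For ascorbate (347 genes), the Wald test called 1273 genes (10.5% of 12137), no filter 1498, and only the groups compared 855. Leaving out each mouse gave 2 to 796 genes. With limma on log2(FPKM + 1), where Spic, Mertk, Mrc1 and Adgre1 fail the FPKM minimum, the median was −0.93 for ascorbate and 0.73 for PBS knockdown against primary.

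Between the restored label and ascorbate (1 gene called), the Wald test called 416, no filter 582, limma at either pseudocount, all 8 libraries and the length offset 3 each, and only the groups compared 0. Leaving out each mouse gave 0 to 5, with medians of −1.0 to 0.13. Signs in that comparison turned: Vcam1 was at 0.079 on library totals and 0.038 with the length offset, and Axl at −0.13 with limma on log2(FPKM + 0.1). When each mouse was left out, Vcam1 ranged from −0.87 to 0.44, Spic from −1.05 to 1.55, Mrc1 from −0.44 to 1.21, Axl from −1.33 to 0.90, Hmox1 from −0.73 to 0.020, Slc40a1 from −2.22 to 0.16, Mertk from −0.24 to 0.76 and C1qa from −1.78 to 0.091, the ends of each range coming without mouse 21 or mouse 23. For PBS knockdown against primary (15 genes, 0 of the 10), the Wald test called 208, limma on log2(FPKM + 0.1) 8, and no filter 467 with 1 of the 10, C1qb. Leaving out each mouse gave 6 to 45. Slc40a1 was at −0.0075 with limma on log2(FPKM + 0.1) and between −0.36 (without mouse 16) and 0.30 when mice were left out. The causes were not tested.

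Depth limits Mertk and Spic most, with 2 to 5 counts and 3 to 23 counts in treated libraries, and groups of 1 to 3 mice limit every test.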
